A study of Mus musculus with 8 samples.

Results

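Imprinted genes were followed in RNA sequencing of mouse dorsal root ganglia, where the cell bodies of sensory neurons lie. The members were chosen by symbol, as a list of 41 imprinted genes and close neighbours at imprinted loci. Of these, 39 had a row among the 25780 genes of the count tables, and 38 passed the filter on low counts together with 20235 genes in all. Snurf and Peg13 were not analysed here, and Dio3 had too few reads to test. The inducible knockout mice (iKO) carried G9a flox/flox alleles of Ehmt2, which encodes the histone H3 lysine 9 methyltransferase G9a, and the inducible Cre recombinase Avil-iCreERT2/AJwo, under control of Avil, a gene of sensory neurons. Littermates without Cre served as wild type (WT), and whether they carried floxed alleles is not given in the sources used here. Each genotype was given vehicle or, to inflame the tissue, complete Freund's adjuvant (CFA) in the left paw, and ganglia were taken 14 days later. The groups WT vehicle, WT CFA, iKO vehicle and iKO CFA held 2 libraries each. Cre acts in neurons only, while the libraries hold RNA of the whole ganglion with its glia, vessels and connective tissue. In such bulk RNA, fewer cells of a type and less RNA per cell cannot be told apart.

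An imprinted gene is transcribed from the maternal or the paternal copy according to a methylation mark laid down in the germ line. Most imprinted genes lie in clusters with one control region, where a long noncoding RNA is made from one parental chromosome and protein-coding genes from the other. The proteins set placental and fetal growth, and a number of them stay high in neurons after birth. G9a takes part in silencing at several such clusters, mainly in placenta and embryonic stem cells. The counts do not separate the parental alleles, so all values below are totals of both copies.

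Values are read counts brought to a library of 1000000 reads (CPM), scaled by the TMM method (trimmed mean of M values) and not by gene length, so they are compared between libraries and not between genes. Library totals ranged from 26312614 to 42971823 reads. Ehmt2 was at 74.4 and 65.4 CPM for WT vehicle, 74.2 and 61.3 CPM for WT CFA, 34.0 and 31.6 CPM for iKO vehicle and 44.95 and 44.2 CPM for iKO CFA. The libraries differed in ways that bear on everything below. Malat1, a nuclear noncoding RNA, was at 1323 and 1187 CPM for WT vehicle and at 27.4 to 57.0 CPM in the 6 other libraries. Summed markers of lymphocytes (10 genes) were at 2135 and 878 CPM for WT vehicle against 3.71 to 53.6 CPM elsewhere, and summed markers of neurons (14 genes) at 13068 and 16903 CPM against 19634 to 27374 CPM. Summed immediate early genes (10 genes) were at 929 and 761 CPM for WT vehicle against 215 to 257 CPM, with Fos at 99.1 and 91.9 CPM against 3.01 to 5.87 CPM. WT vehicle 1 alone held skeletal muscle markers (8 genes), at 424 CPM against 1.36 to 6.97 CPM. The WT CFA libraries also differed from each other. Over the imprinted genes their median gap was 0.61 on the log2 scale, against 0.16 to 0.23 within the other groups. WT CFA 1 lay nearer to the iKO vehicle mean than to the iKO CFA mean for 27 of 38 imprinted genes (72.1% of all genes), and WT CFA 2 lay nearer to iKO CFA for 27 of 38 (68.9% of all genes). The counts of calls below are therefore also given without WT CFA 1 and without WT CFA 2. Markers of some other cell types split the same way. Summed markers of Schwann cells (8 genes) were at 17946 CPM in WT CFA 2 and 16218 and 14951 CPM in iKO CFA, against 6211 to 11156 CPM elsewhere. Those of satellite glia (9 genes) were at 9581, 7277 and 7603 CPM in these 3 libraries against 4173 to 5049 CPM, and those of red cells (5 genes) at 1486, 1622 and 1503 CPM against 138 to 405 CPM. Macrophage markers (8 genes) summed to 423 and 317 CPM for WT vehicle and 115 and 327 CPM for WT CFA. They summed to 107 and 88.8 CPM for iKO vehicle and 264 and 284 CPM for iKO CFA, so WT vehicle was high as well. The part of these differences in the results below was not tested.

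**Figure D1:**
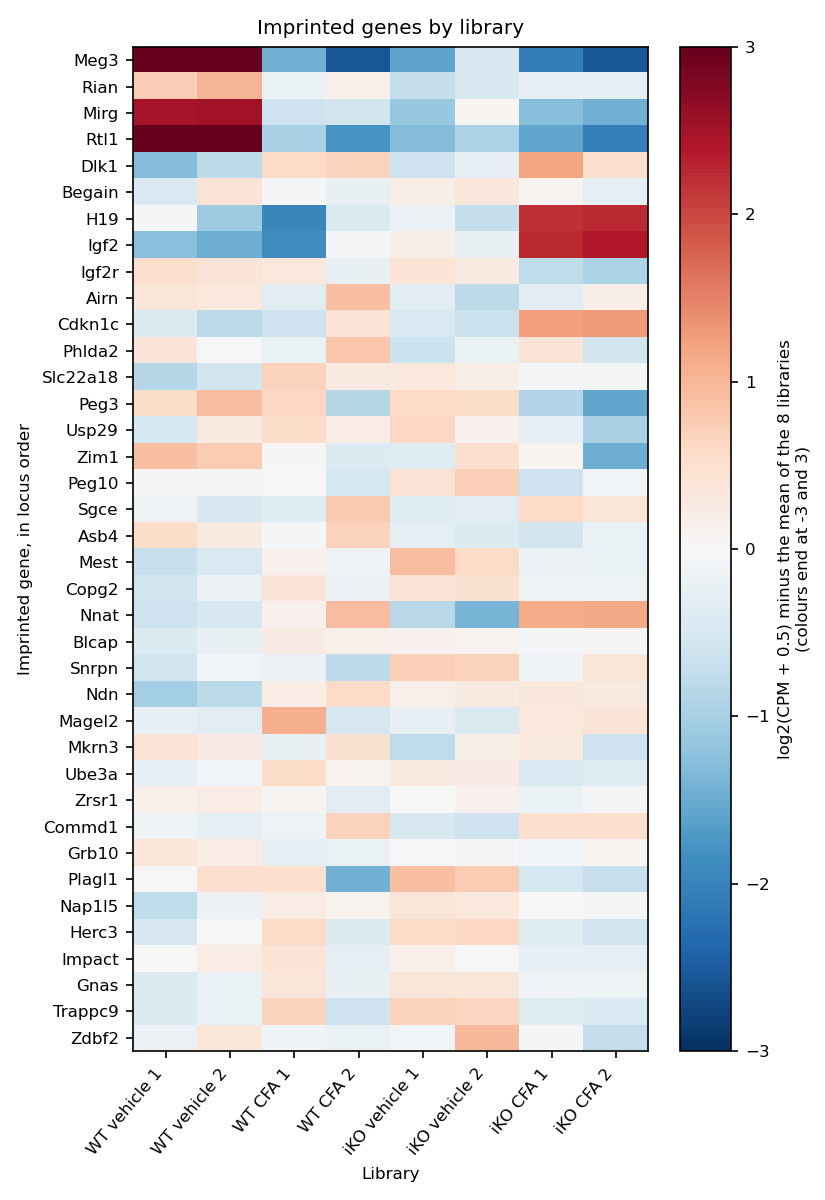
Each row is an imprinted gene in locus order and each column 1 of the 8 libraries; colour gives log2(CPM + 0.5) minus the mean of the 8 libraries, with the colours ending at -3 and 3. Meg3, Mirg and Rtl1 stand out in both WT vehicle libraries, Igf2 and H19 in both iKO CFA libraries, and the WT CFA libraries differ from each other in many rows.

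In WT the question was which imprinted genes an inflamed paw alters in normal ganglia. Of 38 genes 8 passed edgeR's quasi-likelihood test (adjusted p under 0.05), 4 higher and 4 lower, against 16.8% of all genes, of which 8.12% were higher and 8.71% lower. The genes that fell were Meg3, Rian, Mirg and Rtl1, all of the Dlk1-Dio3 locus, and those that rose were Dlk1, Ndn, Slc22a18 and Nnat. The median change of the 38 was 0.18 on the log2 scale, beside -0.03 over all genes. The groups did not overlap, meaning that both libraries of one lay above both of the other, for 17 of 38 imprinted genes and 56.1% of all genes. Calls numbered 2 without WT vehicle 1 (Meg3 and Rtl1), 18 without WT CFA 1 and 19 without WT CFA 2, when 1.21%, 34.6% and 29.9% of all genes passed. With scaling by library size alone 3 imprinted genes were higher and 6 lower, when 17.5% of all genes passed.

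In iKO the same treatment gave 0 calls of 38 in edgeR, beside 0.0395% of all genes. The unadjusted p was under 0.05 for 20 of the 38, and DESeq2 called 16, beside 16.9% of all genes. The groups did not overlap for 32 of 38 imprinted genes and 69.5% of all genes, and the median change was -0.35, beside -0.00 over all genes. The number of calls changed with the WT CFA libraries, which share one estimate of the spread with the others. Without WT CFA 1, without WT CFA 2 or without both, 20 imprinted genes passed, 7 higher and 13 lower, when 32.2%, 32.0% and 34.9% of all genes did. The 7 were H19, Igf2, Nnat, Cdkn1c, Dlk1, Commd1 and Sgce in each of these fits.

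Under vehicle, 9 of 38 imprinted genes differed between iKO and WT, 5 higher and 4 lower in iKO, against 17.6% of all genes (8.28% higher and 9.33% lower). The 4 that were lower were again Meg3, Rian, Mirg and Rtl1, and Mest, Ndn, Slc22a18, Copg2 and Nap1l5 were higher. The groups did not overlap for 28 of 38, beside 75.4% of all genes, and the median change was 0.05 beside 0.01. Calls numbered 3 without WT vehicle 1 or iKO vehicle 1, when 1.84% and 3.09% of all genes passed, and 5 without iKO vehicle 2 (2.14%). They numbered 20 without WT CFA 1 and 19 without WT CFA 2, when 39.2% and 38.9% of all genes passed. With scaling by library size alone 2 were higher and 5 lower, when 17.4% of all genes passed. This comparison shares the WT vehicle libraries with the CFA response in WT, so the 4 genes that were lower in both were set against the same 2 libraries.

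Under CFA, H19 and Igf2 were higher in iKO than in WT, and 36 imprinted genes did not pass. Of all genes 1.70% passed, 1.50% higher and 0.208% lower. The groups did not overlap for 17 of 38, beside 38.3% of all genes, and the median change was -0.27 beside -0.02. Calls numbered 2 without WT CFA 1 and 17 without WT CFA 2, when 3.29% and 26.8% of all genes passed. They numbered 1 without either WT vehicle library (0.923% and 0.869% of all genes) and 0 without either iKO CFA library (0.405% and 0.342%). The CFA responses of the genotypes differed, by the interaction term, for 8 of 38 genes, 4 with a positive and 4 with a negative difference, against 9.36% of all genes (6.19% and 3.17%). Calls of the interaction numbered 2 without WT vehicle 1 or any single iKO library, when 1.06% to 2.46% of all genes passed. They numbered 14 without WT CFA 1 and 26 without WT CFA 2, when 21.4% and 38.2% did. With the replicate number as a block 4 remained (Meg3, Mest, Rian and Rtl1), beside 5.25% of all genes. Scaling by library size alone gave 6 positive and 1 negative, beside 11.8% of all genes.

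**Figure D2:**
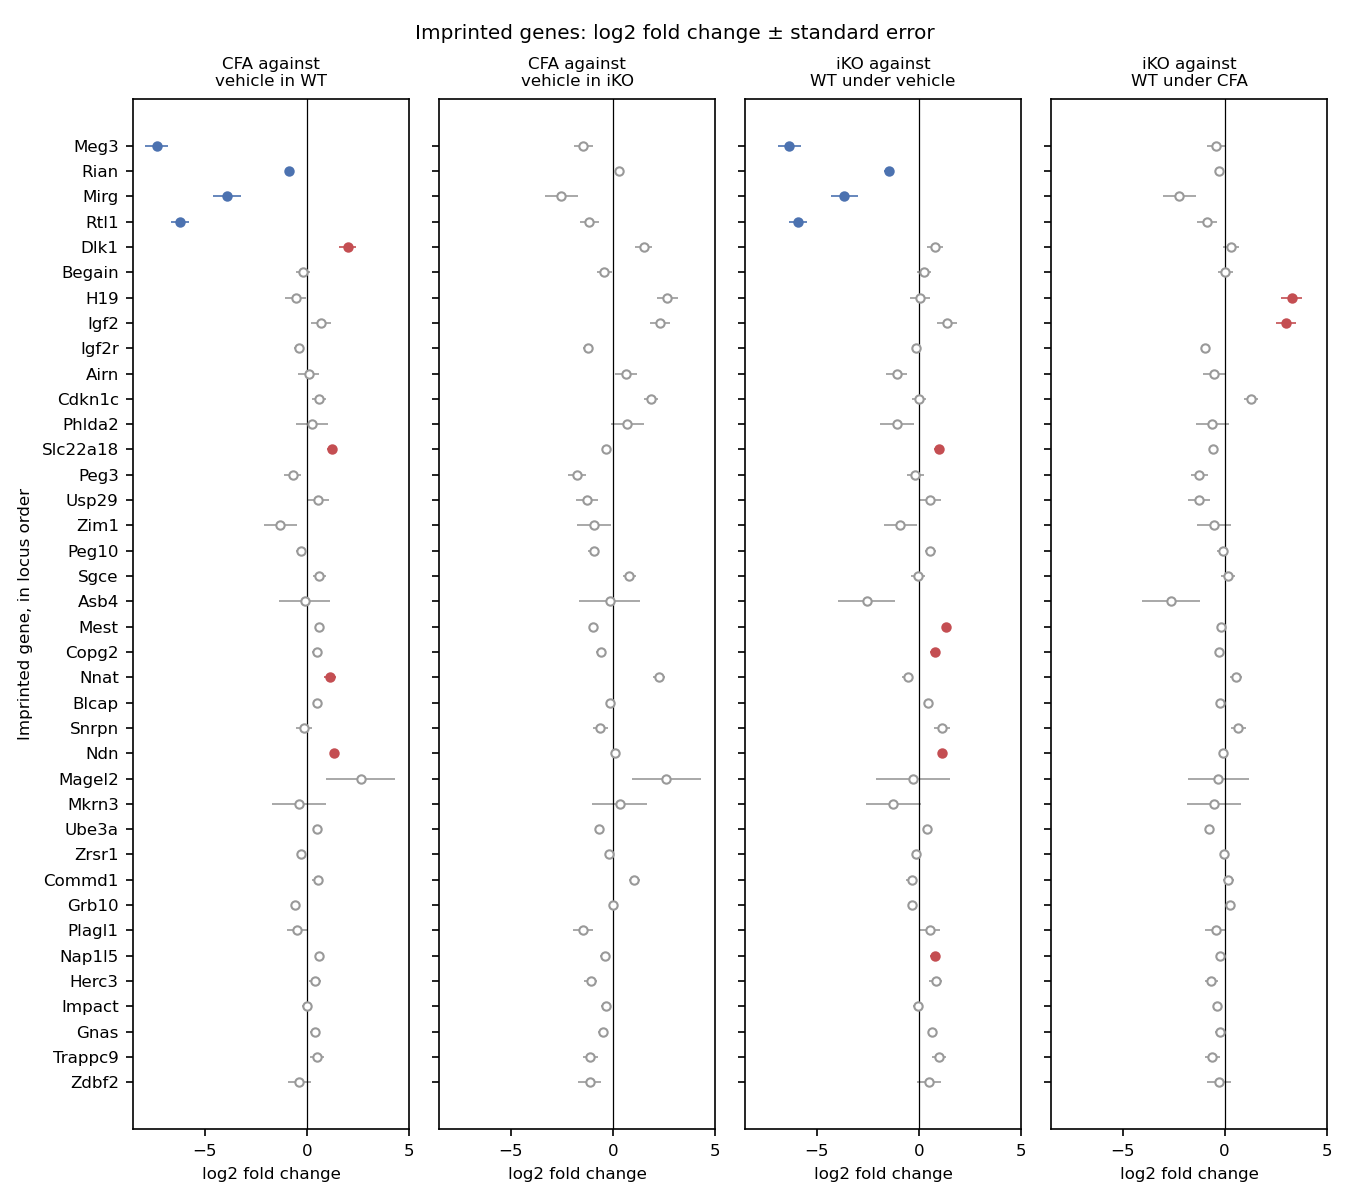
The panels give the log2 fold change ± standard error of the 38 tested imprinted genes for each comparison of single groups, with red for genes called higher, blue for genes called lower and open grey for genes that did not pass an adjusted p of 0.05. Meg3 and Rtl1 lie beyond -5 in both comparisons with the WT vehicle libraries, and H19 and Igf2 lie near 3 in iKO against WT under CFA.

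The Dlk1-Dio3 locus carries 3 maternally expressed noncoding RNAs in a row, Meg3, Rian and Mirg, and the paternally expressed genes Dlk1, Rtl1 and Dio3. Meg3 is a long nuclear RNA, Rian hosts box C/D small nucleolar RNAs and Mirg hosts microRNAs. They are read in one direction behind the Meg3 promoter. Windows at the annotated starts of these RNAs, labelled promoter below, are shown because these RNAs fell together but to different extents. Those of Rian and Mirg lie within the unit read behind the Meg3 promoter. A link of these sequences to the falls was not tested. Each window runs from 250 bases before to 50 bases after the start, in RefSeq's table for GRCm38.p6, on the plus strand. The capitals mark TGCCGC or its reverse complement GCGGCA, the hexamer that the imprint-protecting zinc finger protein ZFP57 binds when it is methylated.
Meg3 promoter, chr12:109540746-109541045: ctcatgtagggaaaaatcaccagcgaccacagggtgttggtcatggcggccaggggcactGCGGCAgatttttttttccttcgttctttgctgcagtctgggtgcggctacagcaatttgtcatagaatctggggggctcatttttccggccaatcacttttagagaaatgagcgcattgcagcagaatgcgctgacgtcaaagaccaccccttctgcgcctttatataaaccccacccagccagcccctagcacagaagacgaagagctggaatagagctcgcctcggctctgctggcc
Rian promoter, chr12:109603695-109603994: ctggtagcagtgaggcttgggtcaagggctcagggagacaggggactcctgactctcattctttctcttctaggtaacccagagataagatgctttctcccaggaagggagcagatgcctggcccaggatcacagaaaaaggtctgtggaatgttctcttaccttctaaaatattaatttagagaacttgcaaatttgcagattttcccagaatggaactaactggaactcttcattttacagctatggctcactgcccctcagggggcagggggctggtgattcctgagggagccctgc
Mirg promoter, chr12:109734731-109735030: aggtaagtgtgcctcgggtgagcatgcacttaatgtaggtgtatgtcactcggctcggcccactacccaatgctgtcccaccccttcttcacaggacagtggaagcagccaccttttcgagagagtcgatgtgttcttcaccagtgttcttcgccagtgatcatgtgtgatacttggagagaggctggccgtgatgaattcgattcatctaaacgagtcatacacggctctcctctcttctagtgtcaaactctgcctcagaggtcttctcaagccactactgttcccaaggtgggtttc
The hexamer, searched on both strands, was found 1 time in the Meg3 window and 0 times in those of Rian and Mirg, with 13, 0 and 10 CpG dinucleotides. Of the 41 members 33 had a window in the table, and 14 of their 53 windows (26.4%) held the hexamer, against 11.6% of all 32851 windows. The median window held 16 CpG in the members and 7 in all genes. These are matches of letters only, and methylation was not measured.

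Meg3 was at 877 and 1098 CPM for WT vehicle, 8.36 and 3.59 for WT CFA, 7.65 and 16.8 for iKO vehicle and 5.30 and 3.67 for iKO CFA. The WT vehicle libraries were far above the 6 others, which formed one low range. Meg3 was 164-fold lower with CFA in WT (log2 fold change -7.36 ± 0.58, adjusted p = 5.17e-04 by edgeR) and 80.9-fold lower in iKO vehicle than in WT vehicle (-6.34 ± 0.55, 6.25e-04). Within iKO the CFA change was -1.44 ± 0.46 and did not pass (0.109), and under CFA the genotypes differed by -0.42 ± 0.46 (0.714). The interaction was 5.92 ± 0.68 (0.00323). Both falls and the interaction kept their calls in all 15, 16 and 14 alternatives run.

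Mirg was at 8.34 and 8.61 CPM for WT vehicle, 0.534 and 0.582 for WT CFA, 0.221 and 1.15 for iKO vehicle and 0.151 and 0.0822 for iKO CFA. It followed the order of Meg3, with the WT vehicle libraries on top. It fell by 3.92 ± 0.68 on the log2 scale with CFA in WT (edgeR adjusted p = 0.00942) and was lower by 3.64 in iKO under vehicle (-3.64 ± 0.66, 0.00994). Without WT vehicle 1 these calls were lost (0.0826 and 0.0828).

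Rian differed less. It was at 354 and 433 CPM for WT vehicle, 187 and 239.7 for WT CFA, 131 and 153 for iKO vehicle and 179 and 177 for iKO CFA. WT vehicle was again highest, but the lowest library held 131 CPM. The fall with CFA in WT was 0.88 on the log2 scale (-0.88 ± 0.20, edgeR adjusted p = 0.0239), and the difference of iKO from WT under vehicle was -1.47 ± 0.21 (0.00395). The first call was lost without any single WT vehicle or iKO library (0.0585 to 0.113) and with the WT libraries alone (0.147), and the second without iKO vehicle 1 (0.0602). The interaction was 1.21 ± 0.29 (edgeR adjusted p = 0.038), a call lost without any single WT vehicle or iKO library (0.089 to 0.183). In counts, Meg3 was 2.47 and 2.54 times Rian in WT vehicle and 0.015 to 0.110 times Rian in the 6 other libraries. Set against the summed neuron markers, Rian was at 27.1 and 25.6 CPM per 1000 marker CPM in WT vehicle and at 5.02 to 10.8 elsewhere.

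Rtl1, a retrotransposon-derived gene needed for placental capillaries, is the paternal gene opposite to the noncoding RNAs. It was at 61.9 and 71.97 CPM for WT vehicle, 1.26 and 0.513 for WT CFA, 0.907 and 1.29 for iKO vehicle and 0.663 and 0.329 for iKO CFA. It was 73.7-fold lower with CFA in WT (-6.20 ± 0.45, edgeR adjusted p = 2.96e-04) and 61.0-fold lower in iKO under vehicle (-5.93 ± 0.44, 3.15e-04), with an interaction of 5.06 ± 0.64 (0.00446). All alternatives run kept these calls. In the RefSeq table the Rtl1 gene overlaps both Meg3 and Rian on the other strand. The ratio of Meg3 to Rtl1 counts stayed between 6.66 and 15.3 in the 8 libraries. The strand setting of the counting is not given in the sources used here, so reads of Rtl1 and of the RNA opposite to it cannot be told apart.

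That opposite RNA is processed to microRNAs. Of 15 microRNA hairpins inside the Rtl1 gene 13 lie on the other strand. The mature arms of 5 of these 13, known as pairing fully with Rtl1 RNA, are shown. They name the transcript that may share the Rtl1 reads, as the strand setting is not given. Capitals mark the seed, bases 2 to 8, and the sequences are RefSeq's.
miR-431-5p: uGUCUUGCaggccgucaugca
miR-431-3p: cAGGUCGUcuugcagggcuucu
miR-433-5p: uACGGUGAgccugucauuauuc
miR-433-3p: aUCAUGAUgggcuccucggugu
miR-127-5p: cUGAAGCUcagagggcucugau
miR-127-3p: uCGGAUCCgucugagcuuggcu
miR-434-5p: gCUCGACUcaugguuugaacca
miR-434-3p: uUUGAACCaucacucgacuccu
miR-136-5p: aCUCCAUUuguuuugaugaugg
miR-136-3p: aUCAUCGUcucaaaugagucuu
Among these and the H19 product given further on, each of the 12 arms had a seed of its own. Long-RNA libraries do not count mature microRNAs, and no value of these is given. RefSeq lists 82 other genes between Meg3 and Mirg, of which 8 had a row, 5 small nucleolar RNAs and 3 microRNAs. AF357359, a small nucleolar RNA chosen after its values were seen, had 3904 reads in all and the other 7 at most 49. It had 683 and 1061 reads in WT vehicle, 318 and 534 for WT CFA, 337 and 206 for iKO vehicle and 438 and 327 for iKO CFA. Like Rian it was highest in WT vehicle without falling near 0 elsewhere. The other small nucleolar RNAs had few reads and differed from it. LOC115488053 had 28 and 20 reads in WT vehicle and at most 1 elsewhere, and LOC115488061 had 14 and 19 against at most 2. DQ267100 had 23 and 13 against 0 except for 12 in iKO CFA 2, and LOC115488050 had 6 and 2 against at most 4.

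Dlk1, a transmembrane inhibitor of fat cell formation, went the other way. It was at 0.838 and 1.43 CPM for WT vehicle, 4.41 and 4.76 for WT CFA, 1.67 and 2.30 for iKO vehicle and 6.99 and 4.30 for iKO CFA. Both CFA groups lay above both vehicle groups. With CFA it rose in WT by 2.01 ± 0.42 (edgeR adjusted p = 0.0166), a call lost without WT vehicle 1 (1.68, 0.147) and with the WT libraries alone. In iKO the CFA change was 1.51 ± 0.40 (0.0986), and the interaction was -0.50 ± 0.56 (0.582). Begain, a synaptic scaffold gene at the edge of the locus, ranged from 3.32 to 6.43 CPM and passed in no comparison. Dio3, which inactivates thyroid hormone, had 2 and 5 reads in WT vehicle, 0 and 0 for WT CFA, 0 and 9 for iKO vehicle and 0 and 11 for iKO CFA. Of 11 tested genes that flank the locus 1 rose in WT with CFA, Evl (0.75 ± 0.16, edgeR adjusted p = 0.0193). In iKO under vehicle 3 were higher and 1 lower. Of all genes 16.8% passed in the first comparison and 17.6% in the second.

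The fall of the noncoding RNAs went along with that of other nuclear RNAs. Of 11 tested nuclear noncoding RNAs outside imprinted loci or at other ones 6 fell and 0 rose with CFA in WT (median -2.91). In iKO under vehicle 7 were lower and 0 higher (median -2.79). Of all genes 8.71% were lower in the first comparison and 9.33% in the second. Malat1 fell by 5.05 on the log2 scale (-5.05 ± 0.33, edgeR adjusted p = 2.14e-04) in the first comparison and was lower by -4.82 ± 0.32 (2.26e-04) in the second. Meg3 changed more than Malat1 in both, and Rian less. Markers of neurons, the cells in which Meg3 is best known, were lower in the WT vehicle libraries, where Meg3 was higher, than elsewhere. The part of RNA quality or nuclear RNA content in these falls was not tested.

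**Figure D3:**
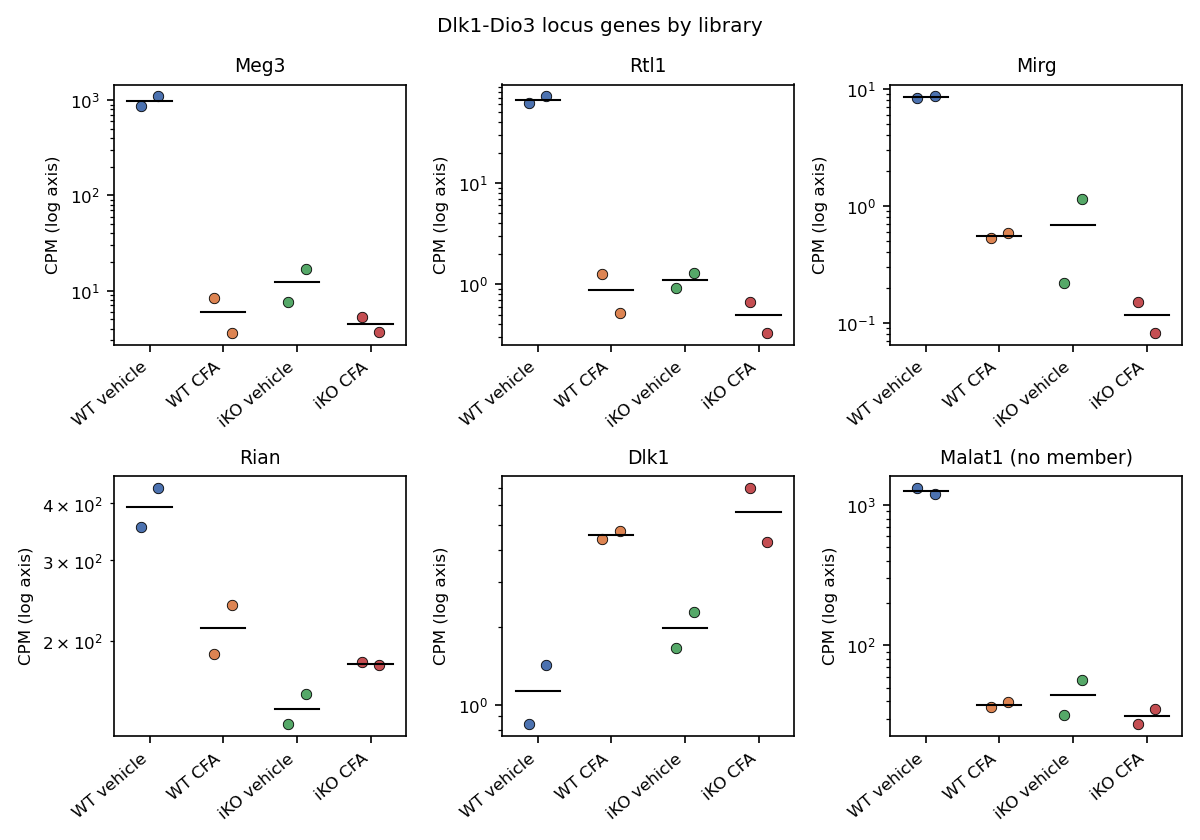
CPM on log axes for 5 genes of the Dlk1-Dio3 locus and for Malat1, a nuclear RNA that is not imprinted, with 1 point per library and a line at the mean of each group of 2. Meg3, Rtl1, Mirg and Malat1 are high in WT vehicle and low in the 6 other libraries, Rian spans 131 to 433 CPM, and Dlk1 is highest in the CFA groups.

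The Igf2-H19 locus was highest in iKO CFA. Igf2 encodes a fetal growth factor that the meninges and connective tissue keep making in the adult, and H19 is the noncoding RNA made from the other parental chromosome under the same enhancers. Igf2 was at 25.4 and 21.9 CPM for WT vehicle, 16.5 and 60.1 for WT CFA, 69.8 and 52.6 for iKO vehicle and 292 and 324 for iKO CFA. H19 was at 22.9 and 10.9 CPM for WT vehicle, 5.80 and 17.4 for WT CFA, 21.0 and 14.2 for iKO vehicle and 111 and 113 for iKO CFA. Both iKO CFA libraries lay above the 6 others for both genes, a separation that H19, Igf2, Cdkn1c and Nnat showed among the 38 imprinted genes and that 7.56% of all genes showed.

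Under CFA, iKO exceeded WT by 3.28 ± 0.53 on the log2 scale for H19 (9.70-fold, edgeR adjusted p = 0.0228) and by 3.01 ± 0.51 for Igf2 (8.05-fold, 0.0268). Without WT CFA 1 the differences were 2.69 (0.00429) and 2.36 (1.94e-04), and without WT CFA 2 they were 4.26 (1.49e-04) and 4.21 (6.24e-06). The Igf2 call was lost without WT vehicle 1 (0.073) or WT vehicle 2 (0.0765). Both calls were lost without iKO CFA 1 (0.0928 for H19, 0.097 for Igf2) or iKO CFA 2 (0.116 and 0.147), and with the CFA libraries alone (0.167 and 0.257). The CFA change in iKO was 2.67 ± 0.51 for H19 (0.0852) and 2.33 ± 0.49 for Igf2 (0.0903), neither past the threshold. Without both WT CFA libraries these changes passed at 2.67 (3.46e-04) and 2.34 (9.95e-05). The CFA responses of the genotypes differed by 3.21 ± 0.71 for H19 (0.0305, lost without WT vehicle 1 or any single iKO library, 0.07 to 0.152, and with the replicate block, 0.0551) and by 1.64 ± 0.67 for Igf2 (0.141). The Igf2 interaction passed without WT CFA 1 (0.98, edgeR adjusted p = 0.0172) and without WT CFA 2 (2.84, 4.91e-05).

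Igf2 was also above both WT vehicle libraries in both iKO vehicle libraries, at 1.37 ± 0.48 (edgeR adjusted p = 0.082, and 1.13e-04 and 1.02e-04 without WT CFA 1 and WT CFA 2), while H19 was not (0.06 ± 0.49, 0.942). The ratio of Igf2 to H19 counts was 1.11 and 2.01 for WT vehicle and between 2.63 and 3.69 in the 6 other libraries. WT vehicle was the group with the least Igf2 for its H19. The H19 transcript carries 1 microRNA hairpin, whose arms are known to act as growth restraints in placenta and are shown with the seed in capitals, from RefSeq.
miR-675-3p: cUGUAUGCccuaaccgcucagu
miR-675-5p: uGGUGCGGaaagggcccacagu

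Markers of connective tissue were read beside these genes. Summed markers of fibroblasts (8 genes) were at 1859 and 1184 CPM for WT vehicle, 1177 and 2526 for WT CFA, 979.6 and 1059.5 for iKO vehicle and 2331 and 2473 for iKO CFA. Igf2 per 100 CPM of these markers was 1.37 and 1.85 for WT vehicle, 1.40 and 2.38 for WT CFA, 7.12 and 4.96 for iKO vehicle and 12.5 and 13.1 for iKO CFA. Summed fibroblast markers were as high in WT CFA 2 as in iKO CFA, whereas Igf2 was not. Their sum was lower in iKO vehicle than in WT vehicle, whereas Igf2 was higher. Single markers differed from the sum. In iKO against WT under CFA 1 of the 8 passed as higher, Pi16 (2.84 ± 0.29, edgeR adjusted p = 0.00312), and 0 as lower. Of all genes 1.50% were higher there. Pi16 also passed with CFA in iKO (2.61 ± 0.29, 0.0382), when 0.0395% of all genes did. Markers of the leptomeninges, the inner membranes that reach onto the ganglia, were chosen after the values were seen. Of 10 such genes 9 were higher in both iKO CFA libraries than in the 6 others. Ptgds, a prostaglandin synthase of these membranes, was at 35.1 and 52.6 CPM for WT vehicle, 62.3 and 391 for WT CFA, 141 and 68.3 for iKO vehicle and 1388 and 1790 CPM for iKO CFA. The other 9 summed to 40.6 and 39.0 CPM for WT vehicle, 40.2 and 110.0 for WT CFA, 51.3 and 48.6 for iKO vehicle and 189 and 214 for iKO CFA. Igf2 per 100 CPM of those 9 was 62.5 and 56.0 for WT vehicle, 41.1 and 54.6 for WT CFA, 136 and 108 for iKO vehicle and 154 and 151 for iKO CFA. On this scale the 4 iKO libraries lay above the 4 WT libraries, an order that was not kept with Ptgds in the sum. All 10 markers summed to 75.7 and 91.6 CPM for WT vehicle and 102 and 501 for WT CFA. They summed to 192 and 117 for iKO vehicle and 1577 and 2004 for iKO CFA. Against that sum both iKO CFA libraries had less Igf2 than both WT vehicle libraries. The part of attached meninges or connective tissue in the levels of Igf2 and H19 was not tested.

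**Figure D4:**
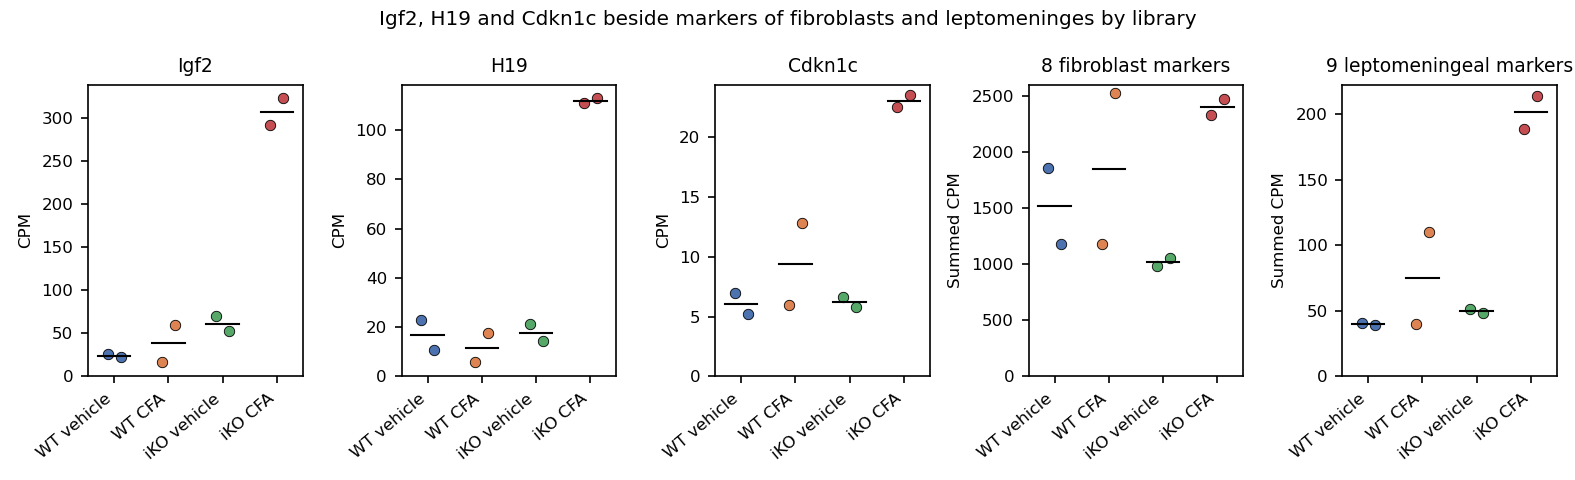
CPM of Igf2, H19 and Cdkn1c, and the summed CPM of 8 fibroblast markers and of 9 leptomeningeal markers, with 1 point per library and a line at the mean of each group of 2. The iKO CFA libraries are highest for the 3 genes and for the leptomeningeal markers, while fibroblast markers are as high in 1 WT CFA library.

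Cdkn1c, the cell cycle inhibitor p57 of the Kcnq1 locus, had a like order. It was at 6.97 and 5.21 CPM for WT vehicle, 5.93 and 12.8 for WT CFA, 6.64 and 5.80 for iKO vehicle and 22.5 and 23.5 for iKO CFA. Its CFA change in iKO was 1.89 ± 0.35 (edgeR adjusted p = 0.0831), and iKO exceeded WT under CFA by 1.30 ± 0.35 (0.125). Without both WT CFA libraries the first change passed (1.89, 2.66e-04), and without WT CFA 2 the second did (1.95, in 2 of 16 alternatives). Slc22a18, a transporter gene of the same locus, was lowest in WT vehicle, at 5.66 and 7.15 CPM, against 17.4 and 12.9 for WT CFA, 13.4 and 12.3 for iKO vehicle and 10.4 and 10.3 for iKO CFA. It rose with CFA in WT (1.24 ± 0.24, 0.013) and was higher in iKO under vehicle (1.003 ± 0.24, 0.0243), with an interaction of -1.56 ± 0.33 (0.0273). Without WT vehicle 1 these 3 calls were lost. The first was also lost with the WT libraries alone, and the second and the third without any single iKO library. Without WT vehicle 2 the second was lost, and with the replicate block the third (0.0512). Scaling by library size alone lost the second and the third. Phlda2, a growth-restraining placental gene, had 13 to 52 reads per library and passed in no comparison.

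Igf2r, the receptor that carries IGF2 to lysosomes, was at 36.8 and 33.2 CPM for WT vehicle, 31.5 and 21.7 for WT CFA, 34.0 and 30.4 for iKO vehicle and 14.7 and 12.9 for iKO CFA. It was thus lowest in the group where its ligand Igf2 was highest, and WT CFA 2 held less of it than WT CFA 1. The CFA change in iKO was -1.22 ± 0.22 (edgeR adjusted p = 0.0831), which passed without both WT CFA libraries (-1.21, 3.49e-04), and iKO differed from WT under CFA by -0.95 ± 0.22 (0.0793). Without WT CFA 2 the latter passed (-1.20, 5.77e-04), as did the interaction (-1.08, 0.00222), and without WT CFA 1 its CFA change in WT passed (-0.70, 0.0107). Airn, the noncoding RNA that overlaps Igf2r on the other strand and silences it on the paternal chromosome, stayed between 1.06 and 4.52 CPM. With all 8 libraries in edgeR Airn passed in no comparison. Its difference in iKO under vehicle (-1.09 ± 0.54, edgeR adjusted p = 0.186) passed in 3 of 16 alternatives.

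Ndn, which encodes the neuronal growth suppressor necdin at the Snrpn locus, was lowest in WT vehicle. It was at 139 and 162 CPM for WT vehicle, 328 and 424 for WT CFA, 315 and 340.4 for iKO vehicle and 358 and 342 for iKO CFA. The WT vehicle libraries lay alone below a common range. Ndn rose with CFA in WT by 1.32 ± 0.20 (2.50-fold, edgeR adjusted p = 0.00613) and was higher in iKO under vehicle by 1.12 ± 0.20 (2.18-fold, 0.00899), while CFA in iKO left it at 0.10 ± 0.20 (0.776). The interaction was -1.23 ± 0.28 (0.0335). Without WT vehicle 1 these calls were lost, and the first was also lost with the WT libraries alone. The second was also lost without either iKO vehicle library, and the third without WT vehicle 2 or any single iKO library. The third was lost too with the replicate block (0.0542) and with scaling by library size alone. Ndn per 1000 CPM of neuron markers was 10.6 and 9.57 for WT vehicle, 11.98 and 19.05 for WT CFA, 12.1 and 12.8 for iKO vehicle and 18.3 and 17.3 for iKO CFA. On that scale the WT vehicle libraries were still lowest, and WT CFA 2 sided with iKO CFA.

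Its neighbours gave less. Ube3a, a ubiquitin ligase made from the maternal copy in neurons, was at 136 and 151 CPM for WT vehicle, 235 and 173 for WT CFA, 195 and 189.6 for iKO vehicle and 116 and 123 for iKO CFA. With all 8 libraries in edgeR it did not pass in a comparison of single groups, and its interaction did (-1.19 ± 0.28, edgeR adjusted p = 0.0357). That call was lost without any single WT vehicle or iKO library, with the replicate block (0.0654) and with scaling by library size alone. Without WT CFA 2 the genotype difference under CFA passed (-0.99, 5.87e-04). Snrpn, a splicing protein gene, was at 6.28 and 6.14 CPM for iKO vehicle and between 1.88 and 4.77 CPM elsewhere (1.14 ± 0.38 against WT under vehicle, 0.0691). Mkrn3, a brake on puberty, had 1 to 21 reads per library. Magel2, a necdin relative, had 38 reads in WT CFA 1, 0 for WT CFA 2 and 1 to 16 in the others, and passed in no comparison. Its change with CFA in WT was 2.64 ± 1.69 (0.312), which rested on 1 library and was 3.62 (0.0495) without WT CFA 2 and -4.50 (0.276) without WT CFA 1.

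Mest, a paternally expressed hydrolase gene of embryonic mesoderm, was highest in iKO vehicle. It was at 57.5 and 67.2 CPM for WT vehicle, 102 and 85.0 for WT CFA, 178 and 140.2 for iKO vehicle and 83.0 and 80.9 for iKO CFA. In CPM the WT vehicle libraries were lowest and did not overlap with any other group. Per 1000 CPM of neuron markers Mest was at 4.40 and 3.98 for WT vehicle and 3.74 and 3.82 for WT CFA. It was at 6.83 and 5.29 for iKO vehicle and 4.23 and 4.09 for iKO CFA, so WT CFA was lowest on that scale. In CPM Mest was higher in iKO under vehicle by 1.35 ± 0.20 (2.55-fold, edgeR adjusted p = 0.00456), a call lost without WT vehicle 1 or iKO vehicle 1. The CFA changes of WT (0.59 ± 0.20, 0.0733) and iKO (-0.96 ± 0.20, 0.0903) did not pass, but they differed from each other (-1.55 ± 0.28, 0.0152), a call lost without WT vehicle 1 or any single iKO library (up to 0.0927). Without WT CFA 2 the change in WT passed (0.72, 0.00925). Copg2, a vesicle coat gene that overlaps Mest on the other strand, was at 85.8 and 88.9 CPM for iKO vehicle against 42.6 and 57.6 for WT vehicle (0.80 ± 0.23, 0.0456), a call lost in 8 of 16 alternatives, among them those without any single WT vehicle or iKO library (0.0644 to 0.318).

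Nap1l5, a nucleosome assembly gene nested in an intron of Herc3, was at 152 and 228 CPM for WT vehicle, 302 and 276 for WT CFA, 332 and 322 for iKO vehicle and 253 and 246 for iKO CFA. It was higher in iKO under vehicle (0.78 ± 0.22, edgeR adjusted p = 0.0422), a call lost in 7 of 16 alternatives, among them those without WT vehicle 1 (0.273) or any single iKO library (0.0964 to 0.224). Per 1000 CPM of neuron markers it lay between 11.02 and 13.5 in all 8 libraries. On that scale the libraries spanned a narrower range than in CPM. Herc3, its host on the other strand, was at 151, 149 and 154 CPM for WT CFA 1 and both iKO vehicle libraries and between 66.7 and 101 CPM in the 5 others.

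Nnat, which encodes the membrane proteolipid neuronatin, was at 18.7 and 20.6 CPM for WT vehicle, 32.0 and 55.6 for WT CFA, 16.1 and 10.8 for iKO vehicle and 63.6 and 64.9 for iKO CFA. All 4 CFA libraries lay above all 4 vehicle libraries. It rose with CFA in WT (1.16 ± 0.29, edgeR adjusted p = 0.029), a call lost in 6 of 15 alternatives, among them those without either WT vehicle library (0.217 and 0.112) or either iKO CFA library, and its change in iKO was 2.25 ± 0.29 (0.0522), which passed in 8 of 17. Blcap, the gene that holds Nnat in its intron on the other strand, went from 36.7 and 42.2 CPM for WT vehicle to between 47.9 and 58.4 CPM elsewhere. With all 8 libraries in edgeR Blcap did not pass. The ratio of Nnat to Blcap counts was 0.508 and 0.489 for WT vehicle, 0.549 and 1.01 for WT CFA, 0.296 and 0.204 for iKO vehicle and 1.33 and 1.29 for iKO CFA. The ratio of this nested pair was highest in iKO CFA and lowest in iKO vehicle.

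Several further genes separated iKO vehicle from iKO CFA, and for these the WT CFA libraries fell on opposite sides. Peg3, a paternally expressed zinc finger gene, was at 190.1 and 244 CPM for WT vehicle, 197 and 71.2 for WT CFA, 195 and 190.1 for iKO vehicle and 70.2 and 43.6 for iKO CFA (CFA change in iKO -1.76 ± 0.44, edgeR adjusted p = 0.0945). Per 1000 CPM of neuron markers Peg3 was at 14.5 and 14.4 for WT vehicle and at 2.21 to 7.49 elsewhere. Plagl1, a zinc finger regulator of other imprinted genes, was at 34.7 and 49.3 CPM for WT vehicle, 48.8 and 12.4 for WT CFA, 64.8 and 58.4 for iKO vehicle and 23.7 and 21.3 for iKO CFA (-1.45 ± 0.51, 0.121). Trappc9, of a trafficking complex, was at 66.1 and 76.6 CPM for WT vehicle, 144 and 57.3 for WT CFA, 143 and 139 for iKO vehicle and 68.7 and 64.1 for iKO CFA (-1.09 ± 0.36, 0.111). In each of them WT CFA 1 was like vehicle of iKO and WT CFA 2 like CFA of iKO. Without both WT CFA libraries the iKO changes of Peg3 (-1.75, 4.24e-04), Plagl1 (-1.44, 3.49e-04) and Trappc9 (-1.08, 2.66e-04) passed. Without WT CFA 2 iKO was lower than WT under CFA for Peg3 (-1.80), Plagl1 (-1.12) and Trappc9 (-1.12). Over all alternatives this difference ranged from -1.80 to -0.32 for Peg3, -1.12 to 0.87 for Plagl1 and -1.12 to 0.21 for Trappc9. Its sign thus changed between fits for Plagl1 and Trappc9.

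Pairs of neighbours showed the same split. Sgce, a muscle and brain sarcoglycan, was at 28.2 CPM for WT CFA 1 and 63.7 for WT CFA 2, with 26.3 to 33.2 CPM in the vehicle libraries and 55.3 and 47.7 for iKO CFA. Peg10, a retrotransposon-derived gene that starts head to head with it, was at 16.5 and 11.1 CPM for WT CFA and highest in iKO vehicle, at 22.4 and 27.1. Their count ratio, Sgce to Peg10, was 1.71 for WT CFA 1 and 5.73 for WT CFA 2, against 1.09 to 1.99 in the vehicle libraries and 5.33 and 3.09 for iKO CFA. Commd1, a copper-handling gene, was at 30.1 and 54.6 CPM for WT CFA, and its ratio to Zrsr1, the spliceosomal gene in its intron, was 0.528 and 1.26 there, 0.371 to 0.513 in the vehicle libraries and 1.01 and 0.931 for iKO CFA. Because the WT CFA libraries differed this much, neither was treated as the truer one.

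Other imprinted genes passed in no comparison of the edgeR fit reported for all 8 libraries. Gnas, the stimulatory G protein subunit, ranged from 1135 to 1975 CPM and was highest in WT CFA 1 and iKO vehicle. DESeq2 called Gnas in iKO under vehicle and for the interaction, when 26.2% and 20.4% of all genes passed in that tool. Zrsr1 ranged from 43.2 to 63.2 CPM, Grb10, an adaptor that restrains insulin signalling, from 25.9 to 41.1 CPM, and Impact, a translation regulator of neurons, from 99.1 to 158 CPM. Of these 4 Grb10 came nearest, with a change of -0.55 ± 0.17 with CFA in WT (edgeR adjusted p = 0.0524), which passed in 6 of 15 alternatives, among them those without WT CFA 1 (0.0265) and WT CFA 2 (0.0156). Usp29, Zim1, Asb4 and Zdbf2 held less than 4 CPM in every library and passed in none either, with means that differed up to 6.98-fold between groups for Asb4.

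The calls were also counted by parent of origin. With CFA in WT, 4 of 15 maternally expressed genes passed (1 higher and 3 lower) and 4 of 19 paternally expressed genes (3 higher and 1 lower), beside 16.8% of all genes, and in iKO under vehicle the numbers were 5 of 15 (2 higher and 3 lower) and 4 of 19 (3 higher and 1 lower), beside 17.6%. The origin is background knowledge and was not measured. By product, 3 of 5 noncoding RNAs fell with CFA in WT and 1 of 33 coding genes did, and the coding genes divided into 4 that rose, 1 that fell and 28 that did not pass, beside 8.12% of all genes that rose and 8.71% that fell.

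Imprinted genes outside the 41 were read from a list of 54, of which 44 were tested, some of them imprinted in a few tissues only. With CFA in WT 1 rose and 7 fell (median -0.18), beside 8.12% and 8.71% of all genes. In iKO under vehicle 2 were higher and 8 lower (-0.07), beside 8.28% and 9.33% of all genes. The noncoding RNA Kcnq1ot1, which silences the Kcnq1 locus on the paternal chromosome, fell by 2.91 on the log2 scale with CFA in WT (-2.91 ± 0.50, edgeR adjusted p = 0.00937), and the sterol reductase gene Dhcr7 rose (1.18 ± 0.19, 0.00713). Of this list 0 of 44 passed by edgeR with CFA in iKO or between the genotypes under CFA, beside 0.0395% and 1.70% of all genes. Genes that read or maintain imprints were taken from a list of 26, of which 22 were tested. Beside 8.71% of all genes that fell with CFA in WT, 10 of these 22 fell and 0 rose (median -0.74, beside -0.03 over all genes). Among them were Dnmt3a, which lays down DNA methylation (-1.45 ± 0.20, 0.00414), Zfp445, which protects imprints with ZFP57 (-1.37 ± 0.23, 0.00861), and Tet3, which oxidises methylcytosine (-1.43 ± 0.24, 0.00891). In iKO under vehicle 8 were lower and 0 higher (median -0.62), beside 9.33% of all genes that were lower. Ehmt2 itself was among the 8 (-1.09 ± 0.18, edgeR adjusted p = 0.00655). As with the noncoding RNAs, the high group was WT vehicle in both comparisons. Between the genotypes under CFA 0 of 22 passed by edgeR, beside 1.70% of all genes. A positive interaction passed for 2 of 22, beside 6.19% of all genes.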

How the data were processed

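Ganglia of 4 groups of mice were sequenced as 8 libraries of total RNA. Per the submitters' processing notes, the authors aligned reads with HISAT2 2.2.1 to GRCm39, handled them with SAMtools 1.19.2, counted reads per gene with featureCounts 2.0.6 and tested them with DESeq2. The deposited values are unscaled counts of reads under each gene symbol. The gene annotation and strand setting are not given in the sources used here.

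Tests were run with edgeR 4.0.16 in R 4.3.3 (filterByExpr, TMM scaling, a quasi-likelihood fit with legacy = TRUE and one mean per group over all 8 libraries). F-tests were two-sided, and p-values were adjusted by Benjamini-Hochberg across the 20235 genes that passed the filter, separately for each comparison, at a threshold of 0.05. Errors are standard errors of the log2 fold change. The p-values measure the spread between libraries, since separate animals are not stated. DESeq2 1.42.0, other scalings, filters and subsets of libraries were alternatives. On counts simulated for CFA against vehicle in WT over 19184 genes, the test recovered 37% of 100 genes changed by 1 on the log2 scale. It recovered 99% of 100 changed by 2, with 2.16% false calls. The simulation gave every gene the same dispersion (spread between libraries), below the common dispersion of 0.075 in the data. Changed genes were drawn from the better expressed ones, and the WT CFA libraries were not made to differ from each other. These rates therefore describe a simpler setting than the real libraries.

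The members and lists were chosen with earlier results of these data known. All members were followed in every comparison. Those called, those whose groups did not overlap by over 1 on the log2 scale and those with few reads could be described with values. Ehmt2, Malat1 and Fos were followed as reference genes, and up to 3 genes of each list, by smallest p per comparison, could be named. The list of leptomeningeal markers and the fits without both WT CFA libraries were chosen after seeing the data. Sequences come from RefSeq tables of GRCm38.p6, another build than that of the counts, and no position was carried between them.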

Additional observations from a re-analysis of the deposited data

Results flagged for a closer look

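The CFA response of iKO minus that of WT passed the interaction test for 8 imprinted genes, and each is set out here because the genotypes then differ in their response. The difference was positive for Meg3 (5.92 on the log2 scale), Rtl1 (5.06), H19 (3.21) and Rian (1.21). Meg3, Rtl1 and Rian were highest in the WT vehicle libraries, and H19 was highest in the iKO CFA libraries. The difference was negative for Slc22a18 (-1.56), Mest (-1.55), Ndn (-1.23) and Ube3a (-1.19), which were lower in WT vehicle than in WT CFA. Meg3 and Rtl1 passed in all 14 alternatives, H19 and Rian in 8, Mest in 9, Slc22a18 in 7 and Ndn and Ube3a in 6. All 8 use the WT vehicle libraries, which stand apart in Malat1, lymphocyte and neuron markers and immediate early genes, with skeletal muscle markers in WT vehicle 1 alone, and the part of those differences was not tested.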

How the results depend on the processing

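Signs were compared for the 120 single-gene results, Ehmt2 included, that passed in at least 1 fit, and results that never passed were left out. Of their 1861 values recomputed under alternatives, 20 had another sign than reported and 0 of these were calls. With 2 libraries a group, single libraries decided most counts of calls. Leaving out 1 library at a time gave 2 to 19 calls for CFA in WT (8 reported), 0 to 20 for CFA in iKO (0), 3 to 20 for iKO against WT under vehicle (9), 0 to 17 under CFA (2) and 2 to 26 for the interaction (8). With only the groups compared the counts were 3, 21, 22 and 0 in the order of the first 4. The shares of all genes that passed were then 4.04%, 45.3%, 42.9% and 0.183%. DESeq2 gave 13 for CFA in WT, 16 for CFA in iKO, 13 and 5 for iKO against WT under vehicle and CFA and 14 for the interaction, when 25.5%, 16.9%, 26.2%, 6.09% and 20.4% of all genes passed in that tool. For CFA in iKO, scaling by library size alone gave 1, no low count filter 7 and the newer quasi-likelihood method of edgeR (legacy = FALSE) 4. In these fits 0.119%, 1.98% and 0.894% of all genes passed. Leaving out both WT CFA libraries gave 20 for CFA in iKO and 21 for iKO against WT under vehicle (34.9% and 41.6% of all genes). Leaving out both WT vehicle libraries gave 0 for iKO against WT under CFA (0.866% of all genes). Scaling by library size alone moved the median of all genes by -0.32 for CFA in WT and 0.42 for the interaction. It moved that median by -0.24 and 0.17 for iKO against WT under vehicle and CFA. This scaling turned no called gene around, but some calls were lost. Those were Nnat for CFA in WT, Copg2, Nap1l5 and Slc22a18 in iKO under vehicle, and Ndn, Slc22a18 and Ube3a for the interaction. The replicate numbers of the groups are shared, but no label says that a number pairs libraries, and deviations of same-numbered libraries correlated at -0.27 to 0.10 over genes. With the replicate number as a block, the counts were 8, 0, 7, 2 and, for the interaction, 4, which lost H19, Slc22a18, Ndn and Ube3a. The shares of all genes that passed with this block were 12.5%, 0%, 12.6%, 1.02% and 5.25%. Dio3, Magel2, Mkrn3 and Asb4 had at most 38 reads in any library, which limits their precision. Of these Magel2 passed with CFA in WT without WT CFA 2 (0.0495 by edgeR), and Asb4 passed in iKO under vehicle with only the groups compared (0.035).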
